A study of Drosophila melanogaster with 24 samples.

Results

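The transcriptome described here is that of wild-type mesodermal cells of the *Drosophila melanogaster* embryo at stage 11 to early stage 12. The members are the 4 RNA-seq samples labelled as wild-type, chosen by their genotype label, out of 24 samples of 6 genotypes with 4 replicates each. All 24 are GFP-positive cells isolated by fluorescence-activated cell sorting (FACS), and the study compared the genotypes to find genes that depend on the Fox transcription factor genes *jumu* and *CHES-1-like*.

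The wild-type embryos carried *twi-GAL4* and *UAS-2EGFP* in 1 copy each (*twi-GAL4 UAS-2EGFP/+*), so that green fluorescent protein was made wherever the *twist* promoter drove the yeast activator GAL4. The 5 other genotypes carried the same driver and reporter. The *jumu* loss-of-function cells were homozygous for the deficiency *Df(3R)Exel6157*, the *CHES-1-like* loss-of-function cells carried *Df(1)CHES-1-like1*, the double loss-of-function cells carried both, and the overexpression cells carried *UAS-jumu* or *UAS-CHES-1-like*. What limits the wild-type group as a model follows from the sort. It was designed to hold the cells in which a *twist* promoter fragment had been active. These were pooled from many embryos, and mesodermal derivatives were not separated. The paper's methods give only a lower bound for the purity of the sorted cells, so some may be of other types. The genotypes came from crosses of different strains, so genotype and genetic background cannot be told apart.

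The mesoderm is the germ layer that forms on the ventral side of the embryo, moves inside at gastrulation and spreads over the ectoderm under the control of fibroblast growth factor signals. It is then divided into the precursors of the heart, the visceral muscle of the gut, the somatic body wall muscles and the fat body and gonadal mesoderm, while blood cells arise from head mesoderm. Somatic muscles are built by founder cells, which carry the identity of each muscle, and by fusion-competent myoblasts, which fuse to them.

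Total counts in the wild-type samples were 70310036, 44579805, 15713045 and 72519855 in replicates 1 to 4, and those of the other genotypes ranged from 15197022 to 71242642. Levels of different genes are given as TPM, which here means counts per kilobase of annotated exon, scaled to a sum of 1000000 over the 13891 protein-coding genes of the table. CPM, counts per 1000000 counts, is used for genes outside the protein-coding class, where it is relative to the library total, and for the same gene between genotypes, where the library sizes were adjusted by edgeR's TMM factors. Between any 2 wild-type samples the log2 levels of 5875 protein-coding genes with at least 100 counts in each sample correlated across genes with r from 0.995 to 0.998, and every pair differed by more than counting noise, so that all 4 were kept as separate replicates. The study's methods give them as biological replicates of the cross. The median coefficient of variation of these genes over the 4 samples was 4.74%, against a counting error of 3.04%.

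The markers that define the sorted tissue were present in every sample. *Mef2*, the MADS-box factor required for muscle differentiation (chromosome arm 2R, 9913496 to 9958858 in Release 6 of the genome), stood at 285, 277, 266 and 287 TPM in replicates 1 to 4. *how*, which encodes an RNA-binding protein of muscle and tendon cells (3R, 22042191 to 22079321), stood at 324, 297, 279 and 309 TPM. *htl*, a fibroblast growth factor receptor of the mesoderm (3R, 18045216 to 18052984), stood at 83.5, 81.4, 88.4 and 79.7 TPM. These 3 genes lay above the median of 30.8 TPM of the 8745 protein-coding genes that reached 1 TPM in every sample, in each of the 4 samples.

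*twi*, the bHLH factor that specifies the mesoderm (2R, 22985374 to 23048325), stood at 43.6, 44.8, 44.3 and 41.8 TPM, and its annotated span overlaps 4 other genes, so its count is uncertain where the counting did not use the strand. *tin*, the homeodomain factor of the dorsal mesoderm and heart (3R, 21378977 to 21381970), stood at 30.9, 37.1, 32.8 and 36.4 TPM. Both were thus close to the level of the median expressed gene and well below *Mef2* and *how*. The 3 other pan-mesodermal genes were *zfh1*, a zinc finger and homeodomain repressor, with 114 ± 5.05 TPM (SD, n = 4), *stumps*, the adaptor of the fibroblast growth factor receptors, with 106 ± 3.08 TPM, and *sna*, a repressor active at gastrulation, with 25.9 ± 1.53 TPM. All 8 genes of this list reached 10 TPM, and 4 reached 100 TPM. The defining markers of the labelled cell type were thus all present. Presence alone does not set it apart from other tissues, whose markers are given below.

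**Figure D1:**
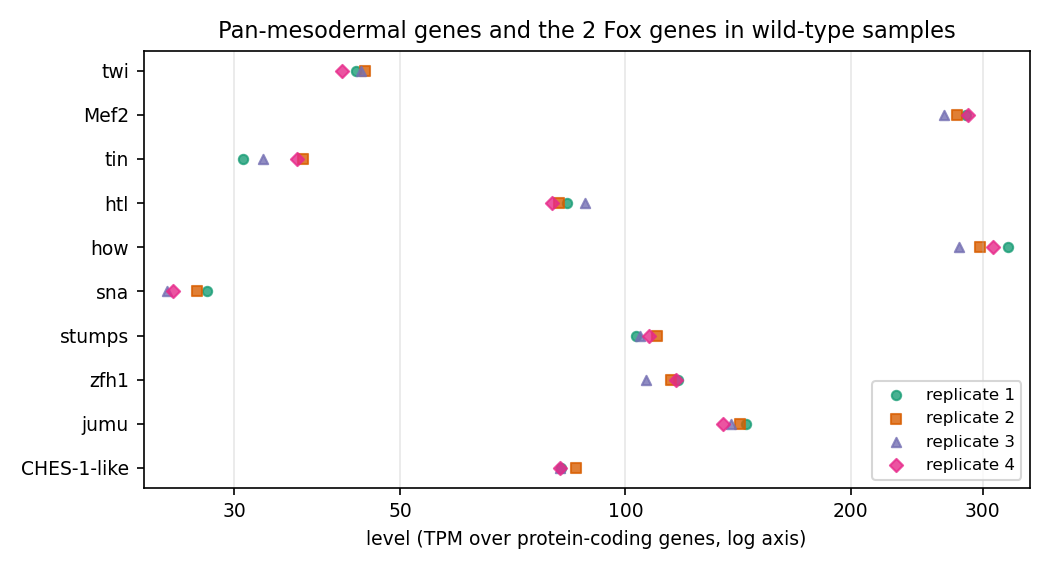
Levels of the 8 pan-mesodermal genes and of *jumu* and *CHES-1-like* in the 4 wild-type samples (x axis, TPM over protein-coding genes, log scale; 1 symbol per replicate). *Mef2* and *how* lie near 300 TPM and *sna* and *tin* lowest, and the replicates of each gene lie close together, the widest being *tin* from 30.9 to 37.1 TPM.

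The 2 Fox genes of the study were both expressed in wild-type mesoderm. *jumu* (3R, 10350182 to 10361612) stood at 145, 142, 138 and 135 TPM, above 92.7% of the protein-coding genes. *CHES-1-like* (X, 7682338 to 7709385), which overlaps 1 other gene, stood at 82.1, 85.9, 81.6 and 81.7 TPM. The samples of the 2 genes did not overlap. As a check of the labels, *CHES-1-like* lay between 0.683 and 1.72 TMM-scaled CPM in the *CHES-1-like* loss-of-function samples and between 1375 and 1748 CPM under its overexpression, against 154 to 161 CPM in wild-type. *jumu* lay between 27.1 and 31.4 CPM in the *jumu* loss-of-function samples and between 648 and 715 CPM under its overexpression, against 118 to 126 CPM in wild-type, so that counts assigned to it remained in the deficiency samples.

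Of the 17476 genes in the table, 11159 had at least 3 counts in every wild-type sample and 1906 had none in any of them. Among protein-coding genes, 9876 were detected by the same rule, 1453 reached 100 TPM in every sample and 138 reached 1000 TPM. The profile was steep, since the 10 most abundant protein-coding genes took 13.1% ± 0.877 (SD, n = 4) of the TPM, the first 100 took 42.5% ± 0.302, and the first 1000 took 72.1% ± 0.222. Between chromosome arms the median level of the genes expressed at 1 TPM varied little, from 29.7 TPM on 3R to 32.1 TPM on X. Chromosome 4, the smallest autosome, had 72 of its 79 protein-coding genes (91.1%) at 1 TPM or more at a median of 63.2 ± 3.44 TPM. On the Y chromosome 2 of 23 genes reached 1 TPM.

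The libraries were made from total RNA, and 49.2% ± 1.97 (SD, n = 4) of the counts fell on protein-coding genes. Ribosomal RNA pseudogenes took 16.3% ± 0.796 of the counts, the 2 mitochondrial ribosomal RNAs 5.01% ± 0.396, and 102 entries that the annotation used here does not hold took 23.6% ± 1.30. The 10 highest genes outside the protein-coding class were led by the entries *CR41583*, with 66163 ± 6989 CPM, and *CR40668*, with 62881 ± 1751 CPM, for which no role is given. The mitochondrial large ribosomal RNA *mt:lrRNA* followed with 49523 ± 3717 CPM, and then *28SrRNA-Psi:CR45859*, *28SrRNA-Psi:CR40741*, *28SrRNA-Psi:CR41609* and *28SrRNA-Psi:CR45855*, with means between 26776 and 42968 CPM. *CR41619*, *7SLRNA:CR42652*, an RNA of the signal recognition particle that targets proteins to the endoplasmic reticulum, and *CR40766* closed the group with 18380, 15973 and 14851 CPM. Pseudogene copies of ribosomal RNA are near-identical to each other, so their single counts are uncertain.

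Protein-coding transcripts were led by the mitochondrial genome and by the machinery of translation and chromatin. *mt:CoI*, a subunit of cytochrome c oxidase, was the highest with 28677, 21108, 24248 and 26500 TPM in replicates 1 to 4. *mt:CoIII*, another subunit, had 27728, 16963, 19083 and 25156 TPM, and *mt:CoII* 10190 ± 907 TPM (SD, n = 4). *mt:Cyt-b*, of respiratory complex III, had 8398 ± 2478 TPM, and *mt:ATPase6*, of the ATP synthase, 5399 ± 1699 TPM. In each of these genes replicates 1 and 4 lay above replicates 2 and 3.

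Cytoplasmic ribosomal proteins were represented among the 20 highest genes by *RpL41* (18655 ± 1106.5 TPM), *RpL39* (6339 ± 464 TPM), *RpS27A* (5609 ± 225 TPM), *RpS18* (5346 ± 104 TPM) and *RpLP2* (5178 ± 108 TPM). The core histones, which package DNA and are transcribed in S phase, filled 9 places. *His2A:CG31618* had 9741 ± 221 TPM, the copies *His2B:CG33908*, *His2B:CG33910* and *His2B:CG17949* had from 8056 to 8131 TPM, *His4:CG31611*, *His4:CG33909* and *His4:CG33907* from 6940.5 to 8006 TPM, and *His3:CG31613* and *His3:CG33803* 5942 and 5918 TPM. Histone genes are repeated in near-identical copies, so the count of each copy is uncertain while that of the class is less so. As classes, the 93 ribosomal protein genes took 24.5% ± 1.23 of the TPM, the 116 histone genes 8.95% ± 0.309 and the 13 mitochondrial genes 7.996% ± 1.55, which left 58.6% ± 0.328 to the other 13669 protein-coding genes.

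The remaining gene among the 20 highest was *Ef1alpha48D*, translation elongation factor 1 alpha, with 11338, 11887, 11399 and 11334 TPM. The next places without mitochondrial, histone and ribosomal protein genes, a selection added after the values were seen, were held by *eIF-5A* (4665 ± 129 TPM) and *EF2* (3577 ± 84.1 TPM) of the translation machinery and by *alphaTub84B* (3770 ± 216 TPM), a tubulin. The chaperone *Hsc70-4* had 3319 ± 110 TPM and calreticulin, *Crc*, 2379 ± 38.3 TPM. *Tom*, a member of the Bearded family of Notch pathway genes, had 2216 ± 136 TPM. Gene products tied to matrix and muscle entered the same range, since *Ppn*, papilin of the basement membrane, had 1982 ± 56.7 TPM, *Act57B*, a muscle actin, 1768 ± 52.4 TPM, and *betaTub60D*, the mesodermal beta tubulin, 1693 ± 33.0 TPM, beside the cytoplasmic actin *Act5C* with 2296 ± 42.4 TPM.

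**Figure D2:**
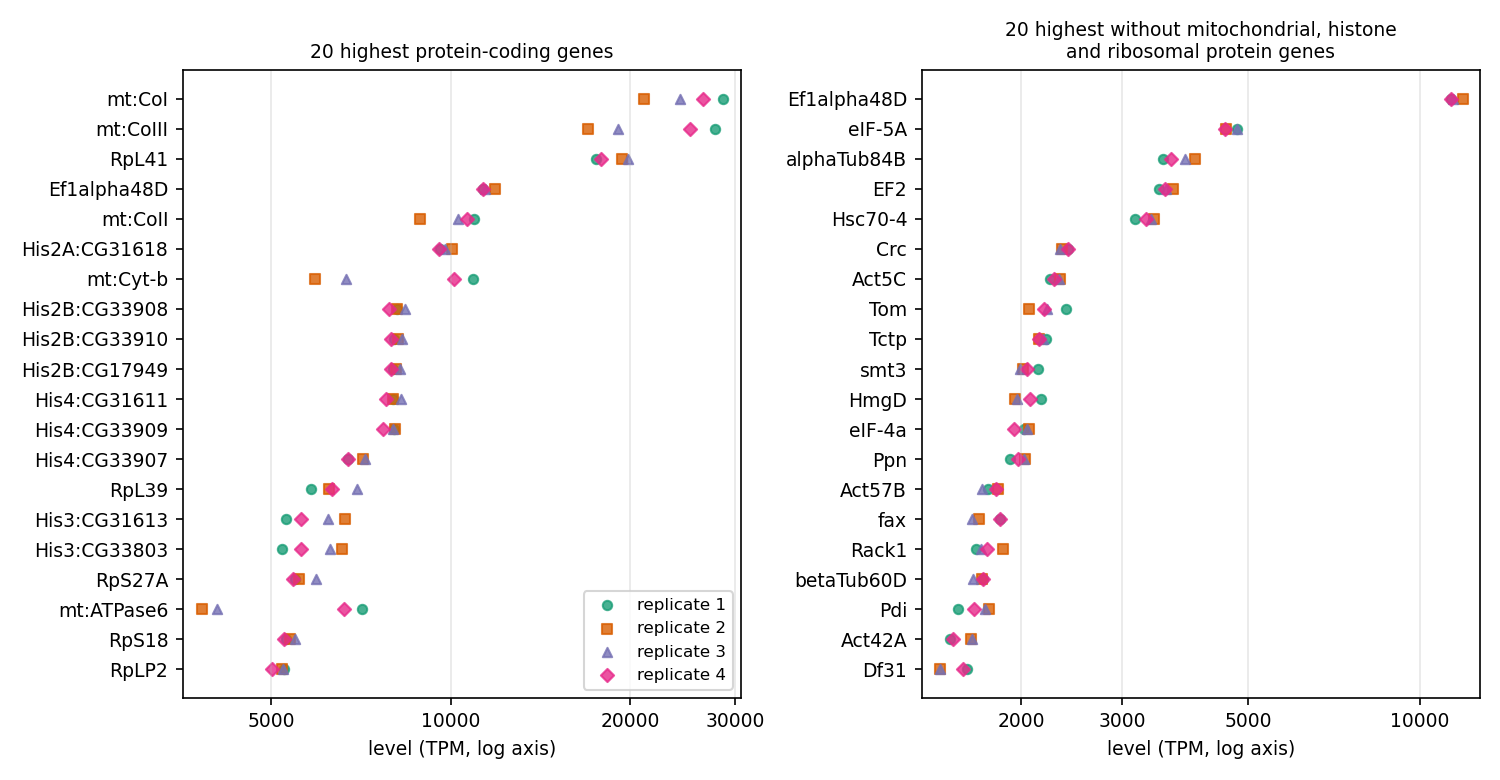
Levels of the 20 highest protein-coding genes (left) and of the 20 highest once mitochondrial, histone and ribosomal protein genes were set aside (right), with 1 symbol per wild-type replicate (x axes, TPM, log scale). On the left *mt:ATPase6*, *mt:Cyt-b* and *mt:CoIII* spread most between replicates, *mt:ATPase6* from 3821 to 7087 TPM, whereas *Ef1alpha48D* spanned 11334 to 11887 TPM.

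The replicates differed most in mitochondrial transcripts. Their share of the protein-coding TPM was 9.56%, 6.27%, 7.14% and 9.01% in replicates 1 to 4, and that of ribosomal protein genes was 23.0%, 25.5%, 25.5% and 23.9%. Replicates 1 and 4 had more of the former and less of the latter than replicates 2 and 3, and were also the deeper libraries, a relation whose part in these shares was not tested. The 12 mitochondrial genes with at least 100 counts in each sample had a median coefficient of variation of 29.0%, against 5.64% for 85 ribosomal protein genes and 4.72% for 5749 other genes. *mt:ND2*, a subunit of respiratory complex I, varied most, with 241, 83.5, 81.3 and 357 TPM.

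Transcription factors varied widely in level. Of a list of 313 factors, 312 were in the table, 273 reached 1 TPM in every wild-type sample, 201 reached a mean of 10 TPM, 52 reached 100 TPM, and 29 stayed under 1 TPM. Their median level was 21.2 TPM. The Hox gene *Ubx*, which specifies posterior thoracic and abdominal segments, was the highest, with 1102, 882, 883 and 1047 TPM. *lmd*, a Gli-related zinc finger factor of fusion-competent myoblasts, came next with 674, 728, 688 and 676 TPM. The ranges of these 2 genes did not overlap each other or any factor below them.

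*E(spl)m7-HLH*, a Notch-induced repressor, *emc*, an HLH protein that blocks other bHLH factors, and *rib*, a BTB-domain factor of tubular organs, formed the next level with 489 ± 11.2, 489 ± 24.7 and 473 ± 6.34 TPM. The samples of *emc* overlapped those of both others, while *E(spl)m7-HLH* lay above *rib* in every sample. *l(3)neo38*, a zinc finger gene, had 423 ± 21.8 TPM and *exd*, the homeodomain partner of Hox proteins, 303 ± 10.8 TPM, each apart from its neighbours in the order. From *Mef2* down to the twentieth factor each gene overlapped the next. This stretch held *E(spl)m5-HLH* (268 ± 6.79 TPM), the BTB repressor *ttk* (267 ± 8.99 TPM), the zinc finger gene *Kah* (261 ± 4.80 TPM), *E(spl)m3-HLH* (258 ± 8.80 TPM), and *ci*, the effector of Hedgehog signalling (256 ± 10.5 TPM).

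It went on with *E(spl)mdelta-HLH* (249 ± 5.09 TPM), *Dp*, the partner of E2F in cell cycle control (242 ± 7.07 TPM), *bab2* (230 ± 5.95 TPM), *Xbp1* and *crc*, bZIP factors of stress responses (227 ± 16.3 and 218 ± 4.40 TPM), *E(spl)mgamma-HLH* (207 ± 13.95 TPM) and *E(spl)mbeta-HLH* (193 ± 12.0 TPM). Thus 6 of the 20 highest factors belonged to the Enhancer of split genes, the effectors of Notch signalling that keep cells from taking a neural or progenitor fate. They lie in 1 complex on 3R and are separate genes in the annotation, with no overlap among these 6.

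**Figure D3:**
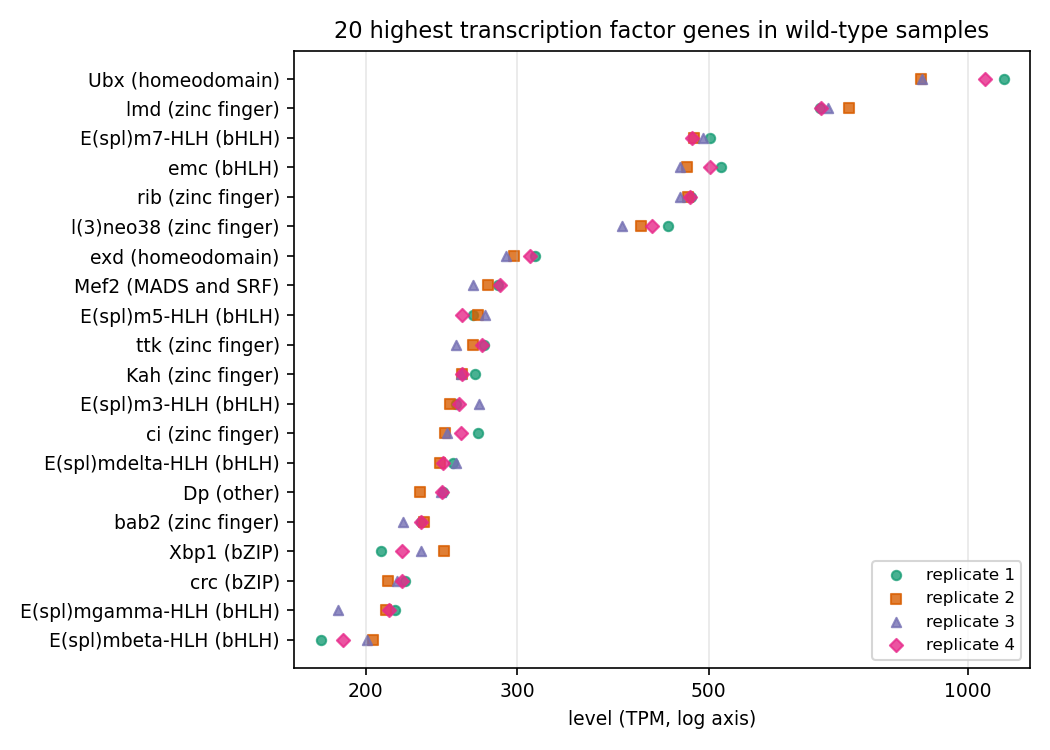
Levels of the 20 highest transcription factor genes in the 4 wild-type samples, with the family of each in brackets (x axis, TPM, log scale; 1 symbol per replicate). *Ubx* and *lmd* lie apart from the rest, with means of 979 and 691 TPM, and from *Mef2* down neighbouring genes overlap.

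By family, zinc finger factors made up the largest summed level, 4855 TPM over 62 genes, of which 56 reached 1 TPM in every sample. The 46 bHLH factors summed to 3938 TPM, with 43 at 1 TPM and 16 at 100 TPM. The 82 homeodomain factors summed to 2818 TPM, of which *Ubx* gave 979 TPM, and only 4 of them reached 100 TPM, with a median of 10.3 TPM. All 5 GATA factors reached 1 TPM in every sample, led by *srp* with 170 ± 4.72 TPM. Of 18 bZIP factors 16 did so, led by *Xbp1*, of 8 T-box factors 6, led by *Doc1* with 48.5 ± 3.62 TPM, and of 12 Sox and HMG factors 10, led by *SoxN* with 71.5 ± 3.12 TPM.

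Among 17 forkhead factors, 15 reached 1 TPM in every sample and *jumu* was the highest, the single one over 100 TPM, while *fd19B* had no count in any of the 4 samples. A count of 0 allows up to 3 counts, which for *fd19B* is between 0.182 and 0.784 TPM depending on the depth of the sample. Among 20 nuclear receptors 17 reached 1 TPM and *Hr78* was the highest with 74.6 TPM. ETS factors had the lowest family median, 1.71 TPM, with 4 of 8 genes at 1 TPM in every sample, although *aop*, a repressor in the Ras pathway, reached 140 TPM. Both genes of the MADS and SRF group, *Mef2* and *bs*, reached 1 TPM, and 29 of the 32 factors of other families did so.

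Marker genes of the mesodermal derivatives were compared with those of other tissues. Of 82 genes on 8 mesodermal lists, 76 reached 1 TPM in every wild-type sample, 70 had a mean of at least 10 TPM and 24 of at least 100 TPM. Of 76 genes on 10 lists for other tissues, the same numbers were 64, 41 and 6. The median mesodermal marker had 34.1 TPM and the median marker of other tissues 11.1 TPM, a 3.07-fold difference, or 1.62 on the log2 scale with an SD of 0.086 over the 4 samples. The value in each sample was 1.59, 1.78, 1.62 and 1.71. The difference was smaller, 1.12, when the 51 and 40 genes that overlap no other gene were used alone. Sums of single lists also fell with such genes alone. The contractile sum fell from 4710 to 2027 TPM and the blood cell sum from 1826 to 633 TPM. The neuroblast sum fell from 627 to 298 TPM and the ventral midline sum from 200 to 56.1 TPM. The amnioserosa sum stayed at 205 TPM. In these bulk samples fewer cells of a type and less RNA per cell cannot be told apart.

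**Figure D4:**
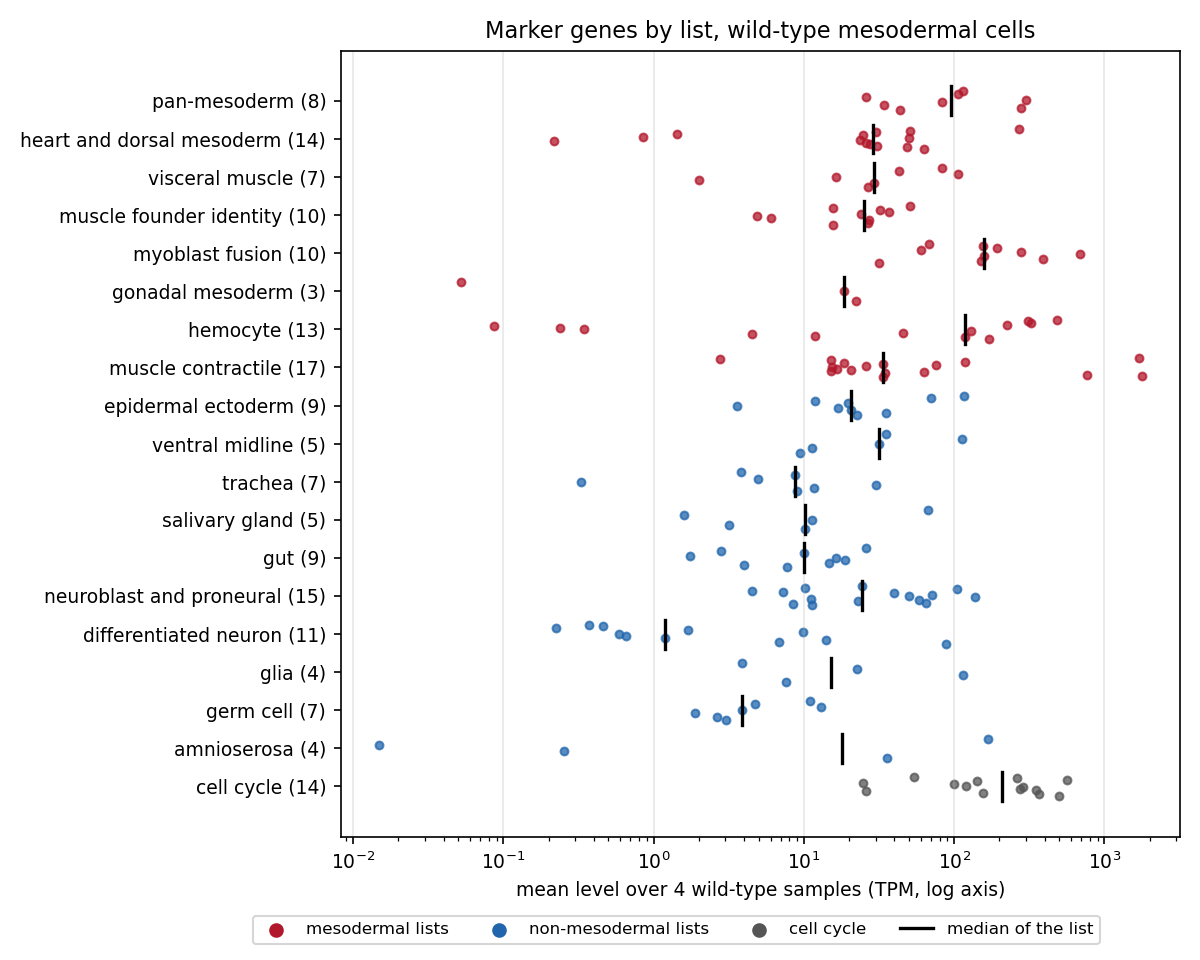
Mean level of every marker gene over the 4 wild-type samples, by list (x axis, TPM, log scale; the number of genes is in brackets, and the black bar is the median gene of the list). Genes of the mesodermal lists (red) lie at a median of 34.1 TPM and those of the other tissues (blue) at 11.1 TPM, and the 2 colours overlap.

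Myoblast fusion genes were among the highest of the mesodermal lists. The 10 genes summed to 2150, 2246, 2153 and 2169 TPM in replicates 1 to 4, all reached 10 TPM, and 7 reached 100 TPM. Of these genes 8 overlap another gene, and the rest summed to 971 TPM. After *lmd* came *sns*, the adhesion protein of fusion-competent myoblasts, with 391 ± 9.69 TPM (SD, n = 4), *mbc*, an activator of Rac in fusion, with 279 ± 5.30 TPM, and *blow*, a cytoplasmic fusion protein, with 194 ± 9.89 TPM. *kirre*, the adhesion protein that *sns* binds on founder cells, had 31.7 ± 0.886 TPM and its span overlaps 23 other genes. *rst*, which can stand in for *kirre*, had 151 ± 2.53 TPM. In every sample *sns* was thus more than 10-fold above *kirre* per exon length.

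Identity genes of founder cells were lower. All 10 reached 1 TPM in every sample and none reached 100 TPM, and their sum was 239 ± 8.50 TPM. *tey*, a zinc finger gene of ventral muscles, had 50.5 ± 1.35 TPM, *Kr* 36.7 ± 1.53 TPM, the Iroquois gene *caup* 32.2 ± 0.510 TPM and the LIM-homeodomain gene *ap* 27.1 ± 0.818 TPM. *nau*, the MyoD homologue, had 15.6 ± 1.81 TPM. *Mef2* alone, which acts in all muscle cells, exceeded the sum of the 10 genes in every sample.

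Structural genes of muscle spanned a wide range. All 17 contractile genes reached 1 TPM in every sample, with a median of 32.4 TPM, yet 3 of them, *Act57B*, *betaTub60D* and *Act87E*, made up most of the summed 4710 ± 123 TPM. *Act87E*, another muscle actin, had 762 ± 30.2 TPM. The titin-like gene *sls* followed with 117 ± 3.53 TPM. *Mhc*, the myosin heavy chain of muscle, had 33.5, 35.2, 33.2 and 33.5 TPM, and *Mlc2*, *Tm2*, *wupA* and *up*, for a myosin light chain, tropomyosin, troponin I and troponin T, had 63.2, 16.7, 25.8 and 15.3 TPM. *Prm*, paramyosin, was the lowest of the list with 2.75 ± 0.467 TPM.

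Heart and dorsal mesoderm genes reached 1 TPM in 12 of 14 cases and summed to 648 ± 19.97 TPM. *Him*, an inhibitor of Mef2 in muscle progenitors and the heart, gave the largest part with 262, 295, 261 and 264 TPM. The GATA factor *pnr* followed with 63.1 ± 1.69 TPM, the LIM-homeodomain factor *tup* with 50.7 ± 0.964 TPM and the nuclear receptor *svp*, which marks a subset of heart cells, with 50.1 ± 2.39 TPM. The Dorsocross genes *Doc1*, *Doc2* and *Doc3* had 48.5, 30.5 and 27.6 TPM, and *Hand* had 23.5 ± 3.69 TPM. *eve*, which marks a small group of pericardial and muscle progenitors, had 1.16, 0.583, 1.09 and 0.550 TPM, and *H15* lay between 0.156 and 0.308 TPM, while its relative *mid* had 25.9 ± 2.50 TPM. *eve* and *H15* were named after their values were seen.

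The 7 visceral muscle genes all reached 1 TPM in every sample and summed to 305 ± 7.36 TPM. *HLH54F*, the bHLH factor of the caudal visceral mesoderm, had 105 ± 4.70 TPM, the adhesion protein *Fas3* 82.7 ± 2.70 TPM and the T-box factor *org-1* 42.9 ± 1.61 TPM. The trunk determinants *bin*, a FoxF factor, and *bap*, an NK homeodomain factor, had 29.1 ± 1.31 and 26.6 ± 1.90 TPM. The receptor *Alk*, which selects visceral founder cells, had 1.91, 1.89, 1.76 and 2.39 TPM, and its ligand *jeb* had 16.4 ± 0.867 TPM, so that the ligand was higher in each sample. The gonadal mesoderm genes *eya* and *Six4* had 22.2 ± 1.37 and 18.5 ± 0.815 TPM. *tj*, which acts in gonadal somatic cells, had 0.072, 0.052, 0 and 0.085 TPM, and the 0 in replicate 3 allows up to 0.220 TPM.

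Blood cell genes ranged from 487 TPM to near 0. The crystal cell gene *PPO2* had 466, 499, 504 and 478 TPM, *Pxn*, peroxidasin, 325 ± 12.7 TPM, *PPO1* 310 ± 7.20 TPM and the scavenger receptor *crq* 224 ± 5.96 TPM. The GATA factor *srp*, required for blood and fat body, had 170 ± 4.72 TPM, *Pvr*, a growth factor receptor of hemocytes, 129 ± 0.860 TPM, and *gcm*, which directs plasmatocytes and also glia, 118 ± 2.76 TPM. *Hml*, *NimC1* and *eater*, plasmatocyte genes known mainly from later stages and named after their values were seen, had 0.345, 0.237 and 0.087 TPM. The remaining genes *ush*, *gcm2* and *lz* lay between, with 45.7, 11.9 and 4.52 TPM. The 13 genes summed to 1826 ± 35.5 TPM and 10 of them reached 1 TPM in every sample.

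Most genes of proliferating cells were high. All 14 cell cycle genes reached 10 TPM and 11 reached 100 TPM, with a median of 208 ± 2.18 TPM over the samples. *dap*, the Cyclin E inhibitor that stops the cycle, had 567, 567, 562 and 559 TPM, and *CycE* itself had 26.0 ± 1.18 TPM. The mitotic cyclins *CycA* and *CycB* had 501 ± 16.0 and 365 ± 7.28 TPM and *stg*, the Cdc25 phosphatase that triggers mitosis, 350 ± 14.5 TPM. The inhibitor *dap* was thus the highest gene of the list, in every sample above *CycA*.

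Genes of other tissues were also present, at a lower pooled median but at uneven levels. The ventral midline, neuroblast and epidermal lists had medians of 31.4, 24.6 and 20.8 TPM. Those of the visceral muscle, heart, founder and gonadal mesoderm lists were similar, 29.3, 28.9, 24.9 and 18.5 TPM. The fusion, blood cell, pan-mesodermal and contractile lists were higher, with 157, 118, 94.8 and 32.4 TPM. The remaining lists of other tissues had medians from 1.18 to 18.1 TPM. Of 9 epidermal genes all reached 1 TPM in every sample, with a sum of 316 ± 3.32 TPM, led by the septate junction genes *Nrx-IV* and *cora* with 115.4 ± 1.49 and 70.4 ± 3.00 TPM. The polarity gene *crb* and the epidermal factor *grh* had 35.3 ± 0.557 and 22.7 ± 0.387 TPM. The 5 ventral midline genes summed to 200 ± 5.71 TPM, of which *sli*, the repellent ligand of the midline and also of muscle attachment sites, gave 113 ± 2.92 TPM, *NetA* 35.4 ± 1.54 TPM, *rho* 31.4 ± 0.813 TPM and *otd* 11.2 ± 0.978 TPM, while the midline determinant *sim* had 9.49 ± 0.814 TPM.

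In the neural lists, genes of neuroblasts were higher than those of neurons. All 15 neuroblast and proneural genes reached 1 TPM in every sample, with a median of 24.6 ± 1.06 TPM, and *mira*, an adaptor of asymmetric division, had 138 ± 7.84 TPM, the zinc finger gene *nerfin-1* 104 ± 5.54 TPM, *SoxN* 71.5 ± 3.12 TPM and *l(1)sc*, a proneural gene that also marks clusters of muscle progenitors, 65.1 ± 5.28 TPM. The proneural gene *ac* had 11.3 ± 2.46 TPM. Of 11 genes of differentiated neurons 5 reached 1 TPM in every sample, with a median of 1.18 ± 0.256 TPM. The RNA-binding protein gene *elav* stood out with 94.2, 84.0, 81.7 and 93.7 TPM, followed by *onecut* with 13.9 ± 1.04 TPM, *Appl* with 9.87 ± 1.23 TPM and *fne* with 6.84 ± 0.981 TPM. The span of *elav* overlaps another gene, so its count is uncertain. Neuron genes that overlap no other summed to 22.5 TPM. The synaptic and transmitter genes *nSyb*, *Syt1*, *brp*, *VGlut*, *Gad1* and *ChAT*, named after their values were seen, had means from 0.224 to 1.18 TPM.

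Glial genes were mixed, since the receptor gene *moody* had 114.6 ± 4.18 TPM and *wrapper* 22.5 ± 1.19 TPM, whereas the glial determinant *repo* had 6.45, 7.15, 8.64 and 8.03 TPM and *alrm* 3.86 ± 0.884 TPM. Gut genes summed to 102 ± 9.53 TPM over 9 genes, and *drm*, *fkh*, *hkb* and *Ptx1* had 25.8, 18.8, 16.4 and 14.8 TPM, with *GATAe*, the endodermal GATA factor, at 7.75 ± 0.575 TPM. Tracheal genes were low, 6 of 7 at 1 TPM in every sample, and *vvl*, *btl*, *trh* and *verm* had 30.1, 11.7, 9.04 and 8.77 TPM.

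In the salivary gland list *CrebA*, a bZIP factor of secretory cells, had 67.3 ± 5.63 TPM, and *PH4alphaSG1*, *sage* and *eyg* had 11.3, 10.2 and 3.16 TPM. Germ cell genes had the second lowest median, 3.89 ± 0.835 TPM, with *AGO3* at 13.0 ± 1.59 TPM, *krimp* at 11.0 ± 1.26 TPM, *tej* at 4.75 ± 0.698 TPM, *zpg* at 3.88 ± 0.848 TPM and the germline helicase *vas* at 3.02 ± 0.669 TPM. In the amnioserosa list *Ance*, a peptidase, had 169 ± 6.20 TPM and *peb*, the zinc finger factor Hindsight, 35.9 ± 1.10 TPM, while the determinants *zen* and *zen2* were at or near 0, with *zen2* counted in 1 of the 4 samples. On the non-mesodermal lists 41 genes thus had a mean of 10 TPM or more. Some defining markers, such as *sim*, *repo*, *GATAe* and *vas*, lay under 10 TPM. Others, such as *elav*, *SoxN*, *l(1)sc*, *CrebA* and *grh*, were among the 41 genes. The part that cells of other types played in these levels was not tested.

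The wild-type profile was then compared with the mean of the 5 other genotypes in 1 fit of all 24 samples with edgeR's quasi-likelihood test. In each log2 difference that mean was taken on the log scale, so a genotype near 0 pulls it down strongly. Means in CPM are arithmetic. *Clk*, for example, had 37.6 CPM in wild-type and 15.2 CPM over the others, with a log2 difference of 3.11. A gene was called at a false discovery rate (Benjamini-Hochberg) under 0.1 with a log2 difference above 0.5 in size. Of 12233 genes tested, 1524 were called (12.5%), 926 higher in wild-type (7.57%) and 598 lower (4.89%). The 4 wild-type samples lay wholly above or below the other 20 in 207 genes (1.69%), of which 164 were called. The split of called genes was 60.8% higher with TMM factors and 71.0% higher when libraries were scaled by their totals. A gene can be called through 1 or a few genotypes, and 803 of the 1524 remained called when each other genotype was left out in turn.

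Most marker genes of the mesoderm were not called. Of 81 mesodermal marker genes tested, 1 was called higher (1.23%, against 7.57% of all genes) and 5 lower (6.17%, against 4.89%), with a median log2 difference of 0.01 beside 0.01 over all genes tested, and none of the 5 defining markers was called. The single gene called higher was *Pxn*, with 418, 458, 443 and 433 CPM in wild-type replicates 1 to 4 and a log2 difference of 0.54 ± 0.08 (SE), although the *CHES-1-like* loss-of-function samples, from 456 to 513 CPM, overlapped wild-type. The 5 lower genes were *NimC1*, *tj*, *H15*, *Hml* and *Hand*, of which 4 lay under 1 TPM in wild-type. Each had a mean below wild-type in *CHES-1-like* loss-of-function (*tj*, *H15*, *Hand*) or *CHES-1-like* overexpression (*NimC1*, *Hml*). *Hand* had 3.79 CPM in wild-type and 2.83 CPM in *CHES-1-like* loss-of-function, against means from 5.90 to 9.55 CPM in the other genotypes. *Hml* had 0.916 CPM in wild-type and 0.630 CPM under *CHES-1-like* overexpression, against 1.24 to 2.93 CPM. The difference of *Pxn* fell to 0.40 without the double loss-of-function genotype and to just under 0.50 without *CHES-1-like* overexpression, which ended its call. *H15* lost its call without wild-type replicate 1 or 2 (adjusted p of 0.132 and 0.127, edgeR) or without the double loss-of-function (0.107). Of 74 tested markers of other tissues 4 were called higher (5.41%, *krimp*, *tej*, *ind* and *hkb*) and 1 lower (1.35%, *btl*), with a median of 0.15. The call of *ind* was lost without wild-type replicate 2 or 4 (adjusted p of 0.132 and 0.147, edgeR) or without *CHES-1-like* overexpression (0.117), and that of *btl* without either *jumu*-deficient genotype, where its difference was -0.18 or -0.23.

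Of 307 transcription factors tested, 22 were called higher (7.17%) and 10 lower (3.26%), shares near those of all genes. *Ubx* was the only one of the 20 highest factors that was called. It had 849 to 1063 CPM in wild-type, a log2 difference of 0.94 ± 0.12 (SE) and an adjusted p of 2.23e-06 (edgeR). The *CHES-1-like* loss-of-function samples, from 976 to 1357 CPM, overlapped wild-type, and those of the 4 other genotypes, from 275 to 737 CPM, lay below it. *jumu* missed the fold threshold with a difference of 0.48. *CHES-1-like* was called with 2.35, a value set by the design, since 2 of the 5 genotypes lack the gene and 1 overexpresses it. Its arithmetic mean was in fact lower in wild-type, 156 CPM against 360 CPM over the others. The log2 difference was 3.77 without the *CHES-1-like* overexpression genotype and 1.09 without the *CHES-1-like* loss-of-function genotype.

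Of the listed genes *Clk* differed most. *Clk*, a bHLH factor of the circadian clock that overlaps 1 other gene, had 37.3, 37.4, 36.9 and 38.7 TMM-scaled CPM in wild-type, above the 20 other samples, which ranged from 0.090 to 33.0 CPM with a median of 19.1. Its log2 difference was 3.11 ± 0.09 (SE), with an adjusted p of 2.31e-19 (edgeR). It was lowest in the *jumu* and the double loss-of-function samples, with means of 0.239 and 0.482 CPM. *rn*, a zinc finger gene that overlaps 3 others, showed the reverse, with 0.383, 0.164, 0.760 and 0.350 CPM in wild-type, a difference of -2.94 ± 0.19, and means of 29.5 and 36.9 CPM in the same 2 genotypes. In the 2 overexpression genotypes *rn* lay at 0.274 and 0.322 CPM, so the difference from wild-type was not shared by all genotypes.

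*krimp*, a gene of the germline piRNA pathway, had 6.18, 5.37, 7.19 and 6.56 CPM in wild-type, with a log2 difference of 2.38, and overlapped the *CHES-1-like* loss-of-function samples at 7.04 to 8.96 CPM. *Rx* had 6.79, 7.85, 7.83 and 7.73 CPM and *bcd* 7.19, 7.96, 6.96 and 8.12 CPM, with differences of 1.82 and 1.47. The *CHES-1-like* loss-of-function samples lay above wild-type for *Rx*, at 7.96 to 8.77 CPM, and overlapped it for *bcd*, at 7.497 to 8.38 CPM. *Rfx* had 5.84, 6.52, 4.38 and 6.03 CPM and a difference of 1.47, while its means were 9.34 CPM under *CHES-1-like* overexpression and 0.240 CPM in the double loss-of-function. In these 4 genes the *jumu* and double loss-of-function samples had the lowest means.

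*Hr51* and *dsf*, nuclear receptor genes, had means of 2.31 and 0.702 CPM in wild-type and differences of 1.81 and 2.71, and each other genotype had a lower mean. *NimC1* had 0.142, 0.205, 0.117 and 0.242 CPM and a difference of -1.93, with means of 2.11 and 2.18 CPM in the *jumu* and double loss-of-function samples. *tj* and *mamo*, with differences of -1.46 and -1.29, were near 0 in wild-type, at 0.041 and 0.048 CPM. For *tj* a single genotype, *CHES-1-like* overexpression with a mean of 3.11 CPM, lay over 1 CPM, and without that genotype the difference was -0.41 and no longer called. The call of *mamo* was lost without wild-type replicate 1 or 2 (adjusted p of 0.131 and 0.146, edgeR) and without *jumu* loss-of-function or overexpression (0.116 and 0.194).

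**Figure D5:**
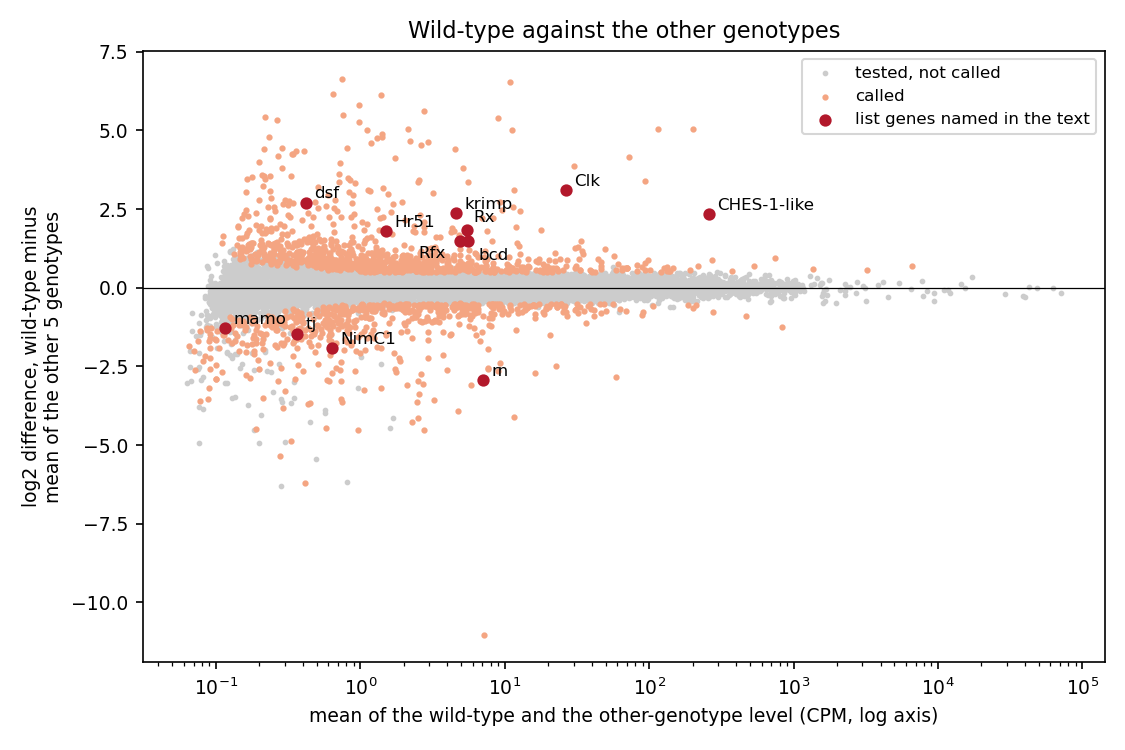
Difference of wild-type from the log-scale mean of the 5 other genotypes (y axis, log2) against level for the 12233 genes tested. The level (x axis, log scale) is the mean of the wild-type and the other-genotype arithmetic CPM. The 1524 called genes are in orange. The 12 listed genes with the largest called differences are in red, from *Clk* at 3.11 to *rn* at -2.94, and all of them but *CHES-1-like* had wild-type means of 37.6 CPM or less.

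Among all genes whose wild-type samples lay apart from the other 20, the 5 highest were *CG33337*, *CG32651*, *CR45055*, *CG12692* and *CG13164*. *CG33337* had 18.1, 18.9, 18.5 and 17.5 CPM in wild-type, with a log2 difference of 6.55 ± 0.18 (SE). Its means were 10.7 and 7.24 CPM in the *CHES-1-like* and *jumu* overexpression samples and at most 0.029 CPM in the 3 loss-of-function genotypes. The 4 others had wild-type means between 1.21 and 2.66 CPM, and showed the same order, with means of at most 0.667 CPM in the overexpression genotypes and at most 0.019 CPM in those with a loss of function.

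The 5 lowest were *mthl8*, *Gr98b*, *CG32694*, *Gfrl* and *TyrR*. *mthl8*, which encodes a receptor of the Methuselah family, had no count in any wild-type sample and a mean of 14.4 CPM over the other genotypes. That mean was 180.5-fold the wild-type floor of 3 counts per library, averaged over the 4 libraries to 0.080 CPM. The floor of replicate 3, the smallest library, was higher, so the fold against it is smaller. The level of *mthl8* ranged from a mean of 0.244 CPM where *CHES-1-like* was deleted to 31.4 CPM where both Fox genes were. *Gr98b*, a gustatory receptor gene, and *CG32694* had at most 4 counts in any wild-type sample and up to 19.1 and 9.05 CPM in the others. *Gfrl* had 0.113, 0.082, 0.175 and 0.202 CPM and *TyrR*, a tyramine receptor, 0.099, 0.267, 0.175 and 0.309 CPM, against 0.235 to 14.4 CPM and 0.749 to 10.5 CPM in the 20 other samples.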

How the data were processed

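RNA was measured in FACS-sorted GFP-positive cells, and groups and replicate numbers were taken from the labels. The authors prepared stranded total RNA libraries, sequenced them on a HiSeq instrument, mapped reads with TopHat2 at default parameters to a Release 6 FlyBase annotation, and deposited whole-number counts per gene without normalization. SAMtools and HTSeq are named in the submitters' processing notes. Whether counting used the strand is not given in the sources used here, so genes that overlap another (6552 protein-coding genes) are uncertain.

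Everything else was computed from these counts with Python 3.11.15, R 4.3.3 and edgeR 4.0.16. Exon lengths, classes and positions were read from a newer Ensembl gene set (release 115) on that assembly, which matched 17199 genes by identifier, 106 by symbol and 69 by a synonym, and 102 were not matched. TPM divides counts by merged exon length. The comparison used TMM factors, the quasi-likelihood test and Benjamini-Hochberg adjustment over the whole table. The 30% of genes of lowest average log2 CPM were then left out. The test was also run on simulated data, whose outcome is not reported here, so no conclusion is drawn from it.

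Named genes were the 5 markers, the 2 Fox genes, the 20 highest protein-coding genes, the 10 highest other genes, the 20 highest factors, the 4 highest and the first marker of each list, the 12 largest called differences of listed genes, and the 5 highest and 5 lowest of all called genes whose wild-type samples lay apart. All other genes were named after their values were seen. Members and lists were chosen with earlier results of these data known. The alternatives were other lengths and scalings, DESeq2 1.42.0, RLE factors, library totals, no filter, a false discovery rate of 0.05, a replicate block, and samples or genotypes left out. Promoter sequences were not used here. Reads carry no molecular identifiers, so floors and counting errors cover counting only.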

Additional observations from a re-analysis of the deposited data

Results flagged for a closer look

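In 9 of 80 wild-type values examined, 1 of the 4 samples lay far from the other 3, where chance alone gives about 4, or 1 in 20. The summed level of the heart and dorsal mesoderm list was 677 TPM in replicate 2 and 636 to 641 TPM in the others. That of the visceral muscle list was 294 TPM in replicate 3 against 308 to 310 TPM, that of the gonadal mesoderm list 39.1 TPM in replicate 1 against 41.2 to 41.5 TPM, and that of the ventral midline list 192 TPM in replicate 3 against 202 to 204 TPM. *CHES-1-like* stood at 85.9 TPM in replicate 2 against 81.6 to 82.1 TPM, and *Ef1alpha48D* at 11887 TPM in replicate 2 against 11334 to 11399 TPM. *Kah* stood at 268 TPM in replicate 1 against 258 to 259 TPM, *Dp* at 231 TPM in replicate 2 against 245 to 246 TPM, and *E(spl)mgamma-HLH* at 186 TPM in replicate 3 against 211 to 216 TPM.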

How the results depend on the processing

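The log2 difference between the median mesodermal and non-mesodermal marker (1.62) was 1.75 with the longest transcript as length, 1.12 with genes that overlap no other, 2.40 with means in place of medians, and 1.61 to 1.71 with each replicate left out; the cause of these moves was not tested. The count of called genes stayed within 1.5 times 1524 under every alternative, and 941 genes remained called without each wild-type replicate in turn. Same-numbered samples correlated weakly in their deviations from the group means, with a median r of 0.038 over 20 pairs and 4 pairs above 0.1. Of the wild-type samples 2 lay closest to those of their own number. These values cannot decide whether replicate numbers pair the samples. The replicate block gave 1564 calls. Of the 22 differences named by rule 20 kept their call under every alternative, the exceptions being *mamo* (lost in 4 of 15) and *tj* (lost in 1). Of the others named, *Pxn*, *H15*, *ind* and *btl* lost theirs under some.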
